A study of Mus musculus with 4 samples.

Results

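The genes described here are 10 mouse genes for RNA-binding proteins that regulate splicing, stability and translation of transcripts: the Elavl genes Elavl1, Elavl2, Elavl3 and Elavl4, the Nova genes Nova1 and Nova2, the polypyrimidine tract-binding protein genes Ptbp1 and Ptbp2, and the Rbfox genes Rbfox1 and Rbfox2. They were taken by symbol from the 33565 genes listed in the count matrices, and all 10 were found. Single-cell RNA of 3 mouse cell lines was profiled with CapSeq, a split-pool method in which cells in gel capsules receive several rounds of barcodes, and CapMux assigned the cells to lines by the first barcode segment (BC1). Neuro-2a (N2a) is a neuroblastoma line and NIH/3T3 is an embryonic fibroblast line, and both were grown in DMEM with fetal bovine serum. The mESCs were of the E14TG2a line and were grown on gelatin with serum, leukemia inhibitory factor, and the inhibitors CHIR99021 and PD0325901. The labels give no other treatment and no added allele, and each line is 1 established line from 1 source, represented by 1 sample without replicates, so no test between lines was possible.

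In the nervous system, these families replace or add to more widely used relatives. Elavl1 (HuR) binds AU-rich and U-rich elements in many cell types, whereas Elavl2 (HuB), Elavl3 (HuC) and Elavl4 (HuD) are the neuronal members of the family. Ptbp1 represses neuronal exons in non-neuronal cells and is exchanged for Ptbp2 during neuronal differentiation, Nova1 and Nova2 bind YCAY elements in neuronal transcripts, and Rbfox proteins bind UGCAUG, with Rbfox2 used widely and Rbfox1 and Rbfox3 (NeuN) mainly in neurons and muscle or in mature neurons.

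Barcodes were kept as cells from 1000 UMIs upward, unless more than 20% of their UMIs were mitochondrial, which gave 2323 N2a cells, 2037 NIH/3T3 cells, and 2137 mESCs. Their summed depth was 17955221, 11697865, and 12322098 UMIs, and the median cell held 6185, 4863, and 4803 UMIs. No cell barcode was shared between the lines (0 barcodes), which follows from the split by BC1, a part of each barcode, and does not check it. A level is the number of UMIs of a gene per 1000000 UMIs of the line (CPM), and the 95% intervals are exact Poisson intervals for levels, exact binomial intervals for shares, and exact conditional binomial intervals for ratios. They cover counting error only, and neither further spread within a line nor differences between cultures. The labels were checked against markers: all 6 fibroblast markers were highest in NIH/3T3 cells, all 6 pluripotency markers were highest in mESCs, and the N2a markers Hand2, Phox2a, Chgb, and Tubb3 were highest in N2a cells, whereas Gata3 was not, with 3.84 CPM in N2a cells and 8.44 CPM in mESCs. Of 6 neuronal markers, Snap25, Syt1, and Map2 were present in N2a cells at 179, 499, and 119 CPM, while Rbfox3, of mature neurons, was at 0.279 CPM and Dcx and Neurod1, of immature and differentiating neurons, had 0 UMIs.

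The members differed in their pattern across the lines. Elavl3, Elavl4, and Nova2 were abundant in N2a cells and rare in the other lines. Ptbp2 and Nova1 were also highest in N2a cells but were present in every line, although Nova1 was low in mESCs. Elavl1, Elavl2, Ptbp1, and Rbfox2 were found at above 60 CPM in each line, as was Ptbp2, and Elavl1 was also highest in N2a cells. Rbfox1 was near the limit of detection in all lines. The name of the set therefore covers genes that were not restricted to the line of neural origin. In GRCm39, Elavl3 occupies chr9:21926301-21963324, Elavl4 chr4:110060810-110209142, and Nova2 chr7:18659789-18699244.

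**Figure D1:**
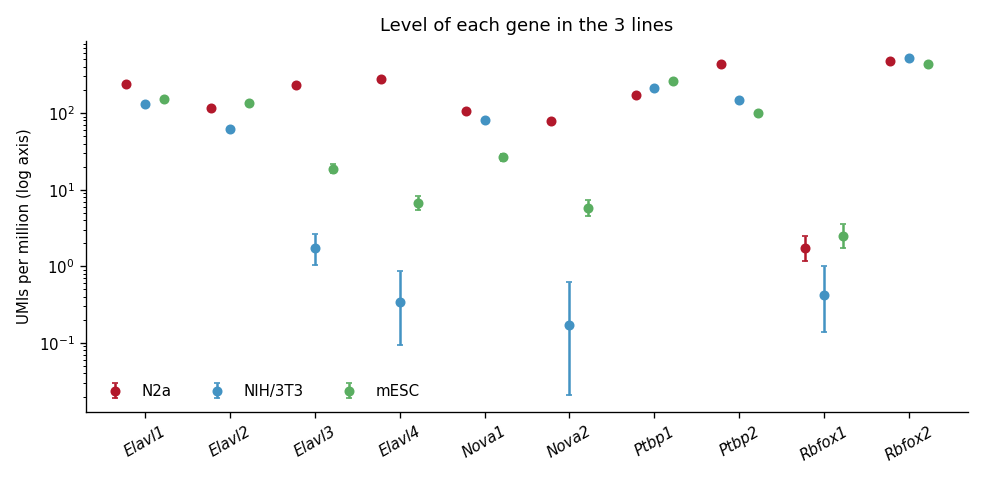
Level of each gene in CPM (log axis) in N2a cells, NIH/3T3 cells, and mESCs, with exact 95% Poisson intervals that cover counting error only. Elavl3, Elavl4, and Nova2 are above 70 CPM in N2a cells and below 20 CPM in the other lines, while Rbfox2 is between 432.5 and 516 CPM in all 3.

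Because Elavl3, Elavl4, and Nova2 were abundant in N2a cells and rare in the other lines, the 250 bases before their RefSeq transcription starts are shown, 5′ to 3′ on the strand of the gene. The sequences come from a RefSeq promoter table on GRCm38.p6, which holds 9 of the 10 members, and each was matched at 1 position of GRCm39: chr9:21963320-21963569 on the minus strand for Elavl3, chr4:110209109-110209358 on the minus strand for Elavl4, and chr7:18659563-18659812 on the plus strand for Nova2. RefSeq lists 4 starts for Elavl4, and the outermost is shown. Capitals mark CAGCTG, an E-box that reads the same on both strands.
Elavl3 promoter: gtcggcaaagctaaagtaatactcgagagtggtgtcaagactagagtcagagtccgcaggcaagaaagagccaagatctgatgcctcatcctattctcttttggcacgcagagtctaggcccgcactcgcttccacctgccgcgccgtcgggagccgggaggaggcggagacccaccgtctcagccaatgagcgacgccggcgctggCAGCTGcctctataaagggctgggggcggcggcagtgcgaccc
Elavl4 promoter: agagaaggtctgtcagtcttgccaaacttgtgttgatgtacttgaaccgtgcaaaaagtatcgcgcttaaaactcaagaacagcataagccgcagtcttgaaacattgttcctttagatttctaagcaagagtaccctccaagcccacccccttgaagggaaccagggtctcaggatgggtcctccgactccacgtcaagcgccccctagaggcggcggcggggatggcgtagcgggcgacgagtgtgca
Nova2 promoter: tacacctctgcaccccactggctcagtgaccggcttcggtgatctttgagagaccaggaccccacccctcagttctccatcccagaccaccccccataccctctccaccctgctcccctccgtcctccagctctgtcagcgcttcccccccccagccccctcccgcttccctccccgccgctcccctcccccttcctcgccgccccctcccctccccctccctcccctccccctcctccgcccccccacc
The E-box was found in the Elavl3 sequence (1 match) and not in the Elavl4 and Nova2 sequences shown. The same window before 2 of the 4 Elavl4 starts held 1 match, but these windows overlap and the match is the same site. Over all 32851 promoter entries of the table, 13.0% held it in the same 250 bases. This motif and those below were chosen after the sequences were read, so the shares given are no test of the matches. The letters GGACAGC and TCAGCACC, stretches of the element bound by the repressor REST, were searched on both strands and had 0 matches in the 3 sequences shown, against 5.28% and 1.32% of all entries. Among the members whose sequences are not shown, the Ptbp2 entry held GGACAGC (1 match). The Nova1 entry and 1 Rbfox1 entry held the E-box (1 match each). These matches describe letters in a short window, and no binding was measured.

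Elavl3, whose protein is used as a general marker of neurons, had 4146 UMIs in N2a cells, 20 UMIs in NIH/3T3 cells, and 232 UMIs in mESCs. These counts are levels of 231 CPM (95% interval 224 to 238), 1.71 CPM (1.04 to 2.64), and 18.8 CPM (16.5 to 21.4). The level in N2a cells was 135-fold (87.3 to 221) that in NIH/3T3 cells and 12.3-fold (10.7 to 14.1) that in mESCs. N2a cells were thus far above both other lines, and mESCs were 11-fold (6.97 to 18.4) above NIH/3T3 cells. An Elavl3 UMI was found in 68.4% of N2a cells, 0.786% of NIH/3T3 cells, and 8.52% of mESCs.

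Elavl4, which stabilizes transcripts needed for neurite growth, such as Gap43, showed a wider difference. It had 4983 UMIs in N2a cells, 4 UMIs in NIH/3T3 cells, and 83 UMIs in mESCs, which are 278 CPM (269.9 to 285), 0.342 CPM (0.0932 to 0.876), and 6.74 CPM (5.36 to 8.35). The ratio of N2a cells to NIH/3T3 cells was 812 (317 to 2980.0), with its width set by the 4 UMIs of NIH/3T3 cells, and that of N2a cells to mESCs was 41.2 (33.2 to 51.8). Gap43 itself was at 177 CPM in N2a cells, 0.684 CPM in NIH/3T3 cells, and 4.63 CPM in mESCs, so it had the same order of lines as Elavl4.

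Nova2, the Nova protein of cortical neurons, had 1416 UMIs in N2a cells, 2 UMIs in NIH/3T3 cells, and 71 UMIs in mESCs. Its levels were 78.9 CPM (74.8 to 83.1), 0.171 CPM (0.0207 to 0.618), and 5.76 CPM (4.50 to 7.27). The ratio of N2a cells to mESCs was 13.7 (10.8 to 17.6), and that to NIH/3T3 cells was 461 with an interval from 127.5 to 3813. The low counts of these 3 genes in the other lines were set beside those of these N2a markers. In NIH/3T3 cells, Hand2 was at 0.275% (0.146 to 0.470), Chgb at 0.323% (0.167 to 0.565), and Phox2a at 0.272% (0.074 to 0.697) of the N2a level, Tubb3 was at 4% (3.27 to 4.85), and Gata3 at 11.1% (3.5 to 27.2). Elavl4 at 0.123% (0.0336 to 0.316) and Nova2 at 0.217% (0.0262 to 0.785) of their N2a levels had intervals that held or overlapped those of Hand2, Chgb, and Phox2a. Elavl3, at 0.740% (0.452 to 1.15), was above these 3 markers in value, while its interval overlapped theirs. Whether free RNA from other cells gave the few UMIs of these genes in NIH/3T3 cells was not tested.

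In mESCs, Hand2 was at 0.442% (0.277 to 0.669) Chgb at 0.358% (0.196 to 0.601), and Phox2a at 0.903% (0.493 to 1.52) of the N2a level, whereas Elavl3 was at 8.15% (7.11 to 9.31), Nova2 at 7.31% (5.67 to 9.28), and Elavl4 at 2.43% (1.93 to 3.02). The intervals of all 3 members lay above those of these 3 markers. Tubb3, which is not restricted to N2a cells in these data, was at 16.4% of its N2a level, and Gata3 was higher than in N2a cells. An Elavl3 UMI was found in 182 mESCs, with 152 cells holding 1 UMI, 22 cells holding 2, and 8 cells holding 3 or more. Whether the cells with 3 or more form a subset was not tested. Among mESCs with at least 3000 UMIs, 14 had no UMI of Zfp42, a gene of the naive state, and 2 of these held Elavl3. Their 8 Elavl3 UMIs gave 122 CPM against 18.0 CPM in the 1560 cells with a Zfp42 UMI, but 7 of the 8 were in 1 cell.

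Elavl2, the remaining neuronal member of its family, did not follow Elavl3 and Elavl4. It had 2107 UMIs in N2a cells, 719 UMIs in NIH/3T3 cells, and 1647 UMIs in mESCs, and its levels were 117 CPM (112 to 122.5), 61.5 CPM (57.1 to 66.1), and 134 CPM (127 to 140.3). The level in mESCs was 1.14-fold (1.07 to 1.22) that in N2a cells, and the N2a level was 1.91-fold (1.75 to 2.08) that in NIH/3T3 cells. Elavl2 was therefore highest in the pluripotent line, and it was also present in fibroblasts, where Elavl3 and Elavl4 had 20 and 4 UMIs. A UMI was found in 47.8% of N2a cells, 26.2% of NIH/3T3 cells, and 44.6% of mESCs.

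Elavl1, the general member, had 4258 UMIs in N2a cells, 1522 UMIs in NIH/3T3 cells, and 1871 UMIs in mESCs. Its level was 237 CPM (230.1 to 244) in N2a cells, 130.1 CPM (124 to 137) in NIH/3T3 cells, and 152 CPM (145 to 159) in mESCs. It was thus highest in the same line as Elavl3 and Elavl4, 1.82-fold (1.72 to 1.93) above NIH/3T3 cells and 1.56-fold (1.48 to 1.65) above mESCs. Elavl1 lies at chr8:4332576-4375489 on the minus strand and overlaps Ccl25 on the other strand.

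In UMIs of the 4 Elavl genes together, Elavl2, Elavl3, and Elavl4 made up 72.5% (71.8 to 73.2) in N2a cells, 32.8% (30.9 to 34.8) in NIH/3T3 cells, and 51.2% (49.6 to 52.8) in mESCs. UMIs were not divided by transcript length, so these shares are compared between lines and do not rank the genes within a line. The makeup of the neuronal share differed. In NIH/3T3 cells, 719 of its 743 UMIs came from Elavl2, and in mESCs 1647 of 1962, whereas in N2a cells Elavl2 gave 2107 of 11236. Elavl1 and the neuronal members were found in the same cells, since 1503 of 2323 N2a cells (64.7%) held a UMI of Elavl1 and of at least 1 neuronal member, where independent detection at the same rates would give 61.6%. With each cell thinned to 1000 UMIs the values were 8.82% and 8.81%. Of the N2a cells, 279 held no UMI of Elavl2, Elavl3, or Elavl4, and their median depth was 2232 UMIs against 6185 UMIs in all N2a cells.

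**Figure D2:**
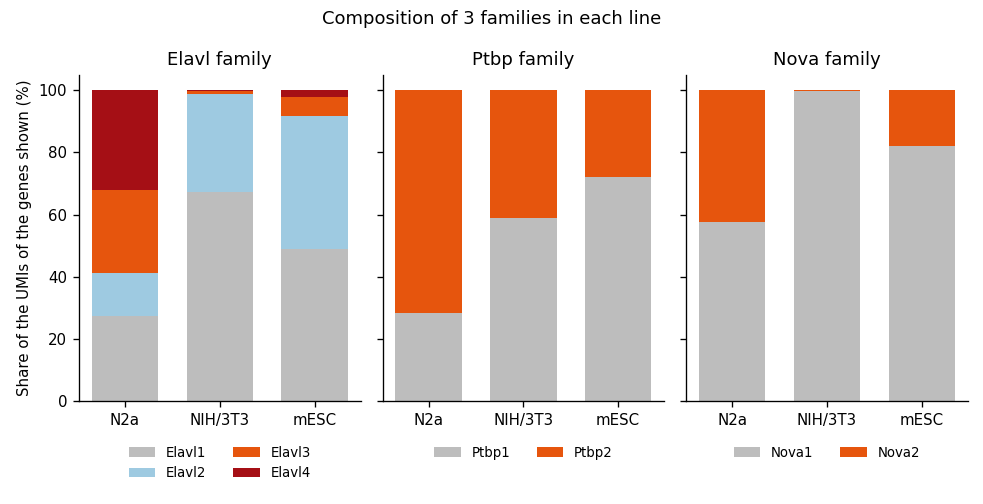
Share of the UMIs of the Elavl, Ptbp, and Nova genes contributed by each gene in each line (%), from UMIs summed over cells and not divided by length. In N2a cells 72.5% of Elavl UMIs came from Elavl2, Elavl3, and Elavl4 and 71.6% of the UMIs of Ptbp1 and Ptbp2 from Ptbp2, and both shares are lower in NIH/3T3 cells and mESCs.

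Ptbp1 and Ptbp2 bind CU-rich elements, and skipping of a short exon in the Ptbp2 transcript, which Ptbp1 promotes, leads to its decay. These exons are shown because they carry the known link between both genes. In GRCm39, the Ptbp2 exon lies at chr3:119518261-119518294 on the minus strand and the related Ptbp1 exon at chr10:79697848-79697881 on the plus strand. Ptbp3, the third gene of the family, has an exon of the same length at chr4:59485339-59485372 on the minus strand. Each sequence runs 5′ to 3′, with the 60 bases of intron before the exon in lower case and the 34 bases of the exon in capitals.
Ptbp1: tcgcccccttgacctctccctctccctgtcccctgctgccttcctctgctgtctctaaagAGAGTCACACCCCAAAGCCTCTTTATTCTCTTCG
Ptbp2: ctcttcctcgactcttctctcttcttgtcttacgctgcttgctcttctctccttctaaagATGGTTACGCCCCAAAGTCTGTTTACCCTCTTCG
Ptbp3: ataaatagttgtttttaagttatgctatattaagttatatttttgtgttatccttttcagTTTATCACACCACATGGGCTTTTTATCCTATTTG
The Ptbp1 and Ptbp2 exons were identical at 26 of 34 bases, against 22 for Ptbp1 and Ptbp3 and 21 for Ptbp2 and Ptbp3. The 60 intron bases held 81.7% pyrimidines in Ptbp2, 80.0% in Ptbp1, and 60% in Ptbp3, and TCTT occurred 6 times in Ptbp2 and 0 times in the others, on the strand of the gene. In GENCODE M39, 9 Ptbp2 transcripts contain the exon and 5 skip it, of which 4 are annotated as targets of nonsense-mediated decay. UMIs were counted per gene, so the use of these exons was not measured here.

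Ptbp2 had 7869 UMIs in N2a cells, 1706 UMIs in NIH/3T3 cells and 1230 UMIs in mESCs. The levels were 438 CPM (429 to 448) in N2a cells, 146 CPM (139 to 153) in NIH/3T3 cells, and 99.8 CPM (94.3 to 106) in mESCs. N2a cells exceeded NIH/3T3 cells 3.00-fold (2.85 to 3.17) and mESCs 4.39-fold (4.13 to 4.67). Unlike Elavl4 or Nova2, Ptbp2 was common in the other lines, with a UMI in 48.9% of NIH/3T3 cells and 37.8% of mESCs. It was found in 81.2% of N2a cells. Ptbp2 (chr3:119509386-119578115, minus strand) overlaps the listed gene Gm42664 on the same strand, so some reads could be shared or lost between them.

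Ptbp1 was lower in N2a cells than in the other lines, but by a smaller factor. It had 3125 UMIs (174 CPM, 168 to 180.3) in N2a cells, 2445 UMIs (209 CPM, 201 to 217.5) in NIH/3T3 cells, and 3190 UMIs (259 CPM, 250 to 268) in mESCs. The level in mESCs was 1.49-fold (1.41 to 1.56) and that in NIH/3T3 cells 1.2-fold (1.14 to 1.27) the N2a level. Ptbp1 (chr10:79690261-79700605, plus strand) overlaps 3 listed genes on the other strand, E130317F20Rik, Plppr3, and Gm17134, and the strand setting of the counting is not given in the sources used here. Ptbp3, the paralog of blood cells and other tissues, was also lower in N2a cells, at 161 CPM (155 to 167), than in NIH/3T3 cells at 246 CPM (237 to 255) and mESCs at 258 CPM (249 to 267).

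Ptbp2 made up 71.6% (70.7 to 72.4) of the UMIs of Ptbp1 and Ptbp2 in N2a cells, 41.1% (39.6 to 42.6) in NIH/3T3 cells, and 27.8% (26.5 to 29.2) in mESCs. The order of the lines was kept when Ptbp3 was added to the total, with 56.7%, 24.3%, and 16.2%. N2a cells held both genes: 1268 of 2323 cells (54.6%) had a UMI of Ptbp1 and of Ptbp2, where independent detection would give 50.8%, and after thinning to 1000 UMIs the values were 5.12% and 5.41%. Of the remaining N2a cells, 618 had Ptbp2 alone, 186 had Ptbp1 alone, and 251 had neither. Detection of one gene thus did not exclude the other in a cell at this depth.

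Nova1, the Nova protein of hindbrain and spinal cord, had 1927 UMIs in N2a cells, 947 UMIs in NIH/3T3 cells, and 325 UMIs in mESCs. Its levels were 107 CPM (103 to 112), 81.0 CPM (75.9 to 86.3), and 26.4 CPM (23.6 to 29.4). The N2a level was 1.33-fold (1.23 to 1.43) that in NIH/3T3 cells and 4.07-fold (3.62 to 4.59) that in mESCs, and NIH/3T3 cells were 3.07-fold (2.7 to 3.49) above mESCs. Fibroblasts thus held Nova1 in 30.4% of cells and Nova2 in 0.0982%. Nova2 made up 42.4% (40.7 to 44.1) of Nova UMIs in N2a cells, 0.211% (0.0255 to 0.759) in NIH/3T3 cells, and 17.9% (14.3 to 22.1) in mESCs. Nova1 lies at chr12:46741300-46866286 on the minus strand and overlaps no other listed gene (0 genes).

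Rbfox2, the widely used Rbfox gene, varied least among the members present in all lines. It had 8572 UMIs (477 CPM, 467 to 488) in N2a cells, 6041 UMIs (516 CPM, 503.5 to 529.6) in NIH/3T3 cells, and 5329 UMIs (432.5 CPM, 421 to 444) in mESCs. The largest ratio between lines was 1.19 (1.15 to 1.24), of NIH/3T3 cells to mESCs. Rbfox1, a gene of 2105.7 kb at chr16:5124665-7230343, had 31 UMIs in N2a cells, 5 UMIs in NIH/3T3 cells, and 31 UMIs in mESCs, or 1.73 CPM (1.17 to 2.45), 0.427 CPM (0.139 to 0.998), and 2.52 CPM (1.71 to 3.57). Whether UMIs from introns were counted, which matters most for so long a gene, is not given in the sources used here. N2a cells and mESCs could not be told apart, with a ratio of 0.686 (0.404 to 1.17). Rbfox1 thus made up 0.360% (0.245 to 0.511) of the UMIs of both genes in N2a cells, 0.0827% (0.0269 to 0.193) in NIH/3T3 cells, and 0.578% (0.393 to 0.820) in mESCs. Rbfox3, the NeuN gene, had 5, 1, and 14 UMIs in the same order. The neuronal Rbfox paralogs were therefore near the limit of detection in N2a cells, whereas the neuronal Elavl and Ptbp paralogs were not.

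Over the 15213 genes with a mean of at least 1 CPM, a set to which all 10 members belonged, a gene was called when its levels, as CPM + 1, differed at least 2-fold between lines. Between N2a and NIH/3T3 cells, 4 of 10 members were called higher in N2a cells (Elavl3, Elavl4, Nova2, and Ptbp2), against 19.9% of all genes tested, and 0 were called lower, against 17.0%. Between N2a cells and mESCs, 5 of 10 were called higher in N2a cells, with Nova1 added to the same 4, against 21.0%, and 0 were called lower, against 20.7%. Between NIH/3T3 cells and mESCs, 1 member, Nova1, was called higher in NIH/3T3 cells, against 20%, and 5 were called lower (Elavl2, Elavl3, Elavl4, Nova2, and Rbfox1), against 23.6%, with Elavl4, Nova2, and Rbfox1 resting on 5 or fewer UMIs in NIH/3T3 cells. The median log2 ratio of the members was 0.93 for N2a cells over NIH/3T3 cells, 1.31 for N2a cells over mESCs, and -0.71 for NIH/3T3 cells over mESCs, beside 0.05, 0.02, and -0.05 over all genes tested. The N2a comparisons share the N2a cells and are not independent.

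Each line occupied 32 BC1 sequences, which share a culture and a library and are not replicates, but they show how far a level varied within a line. Elavl3 ranged from 191.5 to 299 CPM over the BC1 sequences of N2a cells, with a median of 229 CPM, from 0 to 16.9 CPM in NIH/3T3 cells, and from 2.65 to 34.6 CPM in mESCs. Ptbp2 ranged from 337 to 554 CPM in N2a cells, from 108 to 183.5 CPM in NIH/3T3 cells, and from 52.3 to 148 CPM in mESCs. The lowest N2a value thus exceeded the highest of the other lines for both genes. The same held against NIH/3T3 cells for 5 of 10 members (Elavl1, Elavl3, Elavl4, Nova2, and Ptbp2), beside 8.69% of all genes tested, and against mESCs for these and Nova1, or 6 of 10, beside 9.08%. No member lay wholly below NIH/3T3 cells (0 members, background 7.53%) or mESCs (0 members, background 9.11%) in N2a cells. Between NIH/3T3 cells and mESCs, all 10 members overlapped, with 0 higher and 0 lower in NIH/3T3 cells beside 7.57% and 8.12% of all genes. Elavl1, although at less than 2-fold between lines, was separated in this way, with 197 to 282.5 CPM in N2a cells against at most 179.7 CPM elsewhere. The ranges of Ptbp1 overlapped, from 144 to 218 CPM in N2a cells and from 188 to 308 CPM in mESCs. For some members the standard deviation over BC1 sequences exceeded that expected from counting error. It was 46.0 against 28.8 CPM for Ptbp2 in N2a cells and 66.9 against 39.3 CPM for Rbfox2 in NIH/3T3 cells. For others it did not, with 20.5 against 21.2 CPM for Elavl1 in N2a cells and 18.8 against 20.9 CPM for Ptbp2 in NIH/3T3 cells. The intervals given do not cover such an excess.

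**Figure D3:**
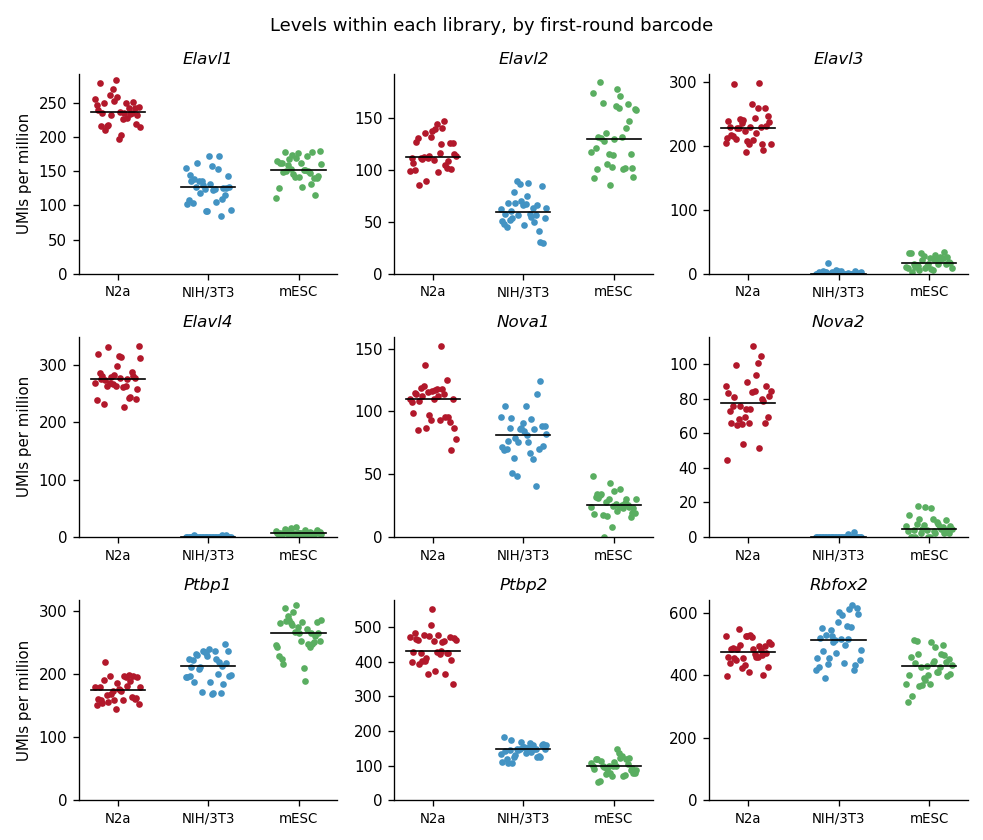
Level of 9 of the 10 genes in CPM over the 32 BC1 sequences of each line (points) with the median (line), where points within a line are not replicates and have no order. For Elavl1, Elavl3, Elavl4, Nova2, and Ptbp2 the lowest N2a point lies above the highest point of both other lines.

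Because N2a cells were deeper, the share of cells with a UMI was also taken after thinning each cell to 1000 UMIs, a depth all cells reached. Ptbp2 was then found in 33.8% of N2a cells (31.9 to 35.8), 14.4% of NIH/3T3 cells (12.9 to 16.0), and 9.03% of mESCs (7.85 to 10.3). Elavl4 was found in 22.1% of N2a cells, 0.0982% of NIH/3T3 cells, and 0.749% of mESCs, and Elavl3 in 20.8%, 0.0491%, and 1.87%. Nova2 was found in 7.32% of N2a cells, in 0 of 2037 NIH/3T3 cells, and in 0.468% of mESCs, and the 0 allows up to 0.147% of NIH/3T3 cells with a UMI at this thinned depth, where 2 cells held one before thinning. For Ptbp1 the order of the lines changed with depth: without thinning, 62.6% of N2a cells and 60.3% of NIH/3T3 cells held a UMI, and after thinning 16.0% and 17.9%, which matches the order of the levels.

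**Figure D4:**
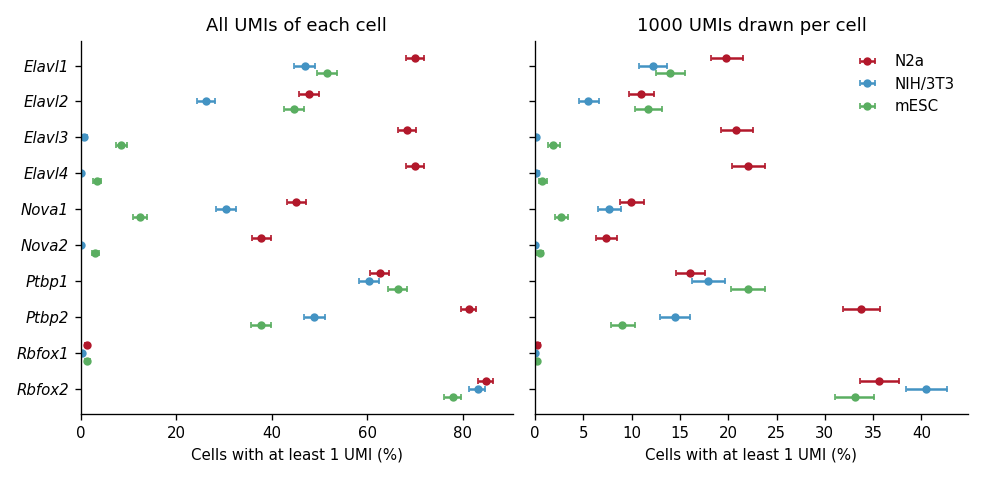
Share of cells with at least 1 UMI of each gene (%) in the 3 lines, from all UMIs (left) and with 1000 UMIs drawn per cell (right, on its own scale), with exact 95% binomial intervals. Elavl3, Elavl4, and Nova2 are detected mainly in N2a cells in both panels, and Rbfox2 is detected in more than 77% of cells of every line before thinning.

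All 3 lines divide in culture, so the members were also compared within each line between the 25% of cells with the highest CPM of 10 G2/M genes and the remaining cells. Cells are not replicates, and the intervals of these ratios leave out variation between cells, so the ratios are descriptive. Elavl4 was higher in the G2/M-high N2a cells, at 319 CPM (303 to 335.5), than in the other N2a cells, with a ratio of 1.22 (1.14 to 1.29). Nova1 was lower in them, with a ratio of 0.819 (0.734 to 0.911), as was Ptbp2, with a ratio of 0.88 (0.836 to 0.927). Elavl2 had a ratio of 1.13 (1.03 to 1.25) in N2a cells, 1.29 (1.1 to 1.51) in NIH/3T3 cells, and 0.89 (0.793 to 0.996) in mESCs. Elavl1 had a ratio of 0.888 (0.789 to 0.997) in NIH/3T3 cells. Ptbp2 was also lower in the G2/M-high NIH/3T3 cells, with a ratio of 0.871 (0.779 to 0.973), but not in mESCs, at 0.996 (0.875 to 1.13), and the difference between lines was not tested. For Ptbp2 these ratios were small beside its 3.00-fold and 4.39-fold differences between lines, whereas the ratio of Elavl2 within NIH/3T3 cells exceeded its 1.14-fold difference between mESCs and N2a cells, and that of Nova1 was close in size to its 1.33-fold difference between N2a and NIH/3T3 cells.

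Of 11 further RNA-binding proteins of neurons, all of them tested, 7 were called at least 2-fold higher in N2a than in NIH/3T3 cells and 1 lower, and 6 were called higher than in mESCs and 2 lower. Their median log2 ratio was 3.60 for N2a cells over NIH/3T3 cells and 2.33 over mESCs. Of all genes tested, 19.9% were called higher and 17.0% lower in N2a than in NIH/3T3 cells, and 21.0% and 20.7% against mESCs. Celf3 and Celf4, neuronal members of the CELF splicing family, were at 116 and 201 CPM in N2a cells and below 2 CPM in both other lines. Srrm3 and Srrm4, which promote the inclusion of neuronal microexons, were at 130 and 175 CPM in N2a cells, 1.79 and 6.58 CPM in NIH/3T3 cells, and 6.00 and 3.49 CPM in mESCs. Celf6 was at 20.8, 0.769, and 1.78 CPM, and Msi1, a regulator of neural progenitors, at 91.7, 6.67, and 17.4 CPM. Celf5 was at 5.96 CPM in N2a cells, close to its 5.84 CPM in mESCs, and at 1.71 CPM in NIH/3T3 cells. The list did not move in 1 direction, because Khdrbs3 was at 34.3 CPM in mESCs and at 0.223 and 0.171 CPM in N2a and NIH/3T3 cells, and Khdrbs2 was at 0.668 CPM in N2a cells, 2.39 CPM in NIH/3T3 cells, and 3.17 CPM in mESCs. Stau2, at 51.9, 26.8, and 29.9 CPM, and Cpeb3, at 29.0, 19.7, and 32.2 CPM, stayed within 2-fold.

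**Figure D5:**
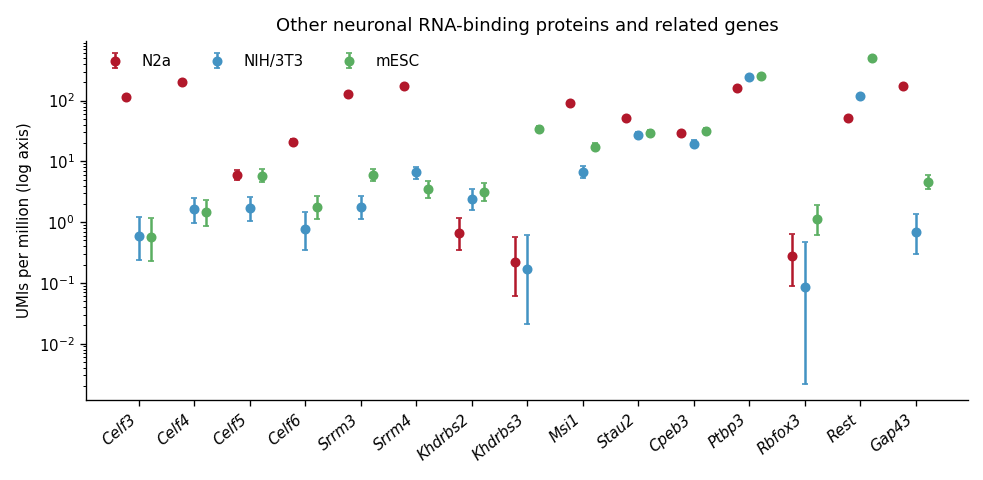
Level of 11 further neuronal RNA-binding protein genes, of Ptbp3 and Rbfox3, and of Rest and Gap43, in CPM (log axis) in the 3 lines with exact 95% Poisson intervals. Celf3, Celf4, Srrm3, Srrm4, and Gap43 are highest in N2a cells, while Khdrbs3 and Rest are highest in mESCs.

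General splicing factors were counted in the same way. Of 26 such genes, all of them tested, 0 were called higher in N2a than in NIH/3T3 cells and 2 lower, Celf2 and Mbnl1, and against mESCs 2 were called higher, Mbnl1 and Mbnl2, and 2 lower, Qk and Hnrnpc. Their median log2 ratio was 0.06 for N2a cells over NIH/3T3 cells and -0.26 over mESCs. The shares over all genes tested were 19.9% higher and 17.0% lower against NIH/3T3 cells, and 21.0% and 20.7% against mESCs. Mbnl1, Mbnl2, Qk, and Hnrnpc are named here after their values were seen. Hnrnpa2b1 was at 1163 CPM in N2a cells, 888 CPM in NIH/3T3 cells, and 1198 CPM in mESCs, and Srrm2 at 717, 708, and 728 CPM. Celf2, although often studied in brain, was at 183 CPM in N2a cells, 1946 CPM in NIH/3T3 cells, and 142 CPM in mESCs, so it was higher in NIH/3T3 than in N2a cells, unlike Celf3 and Celf4, and 1.29-fold (1.22 to 1.36) higher in N2a cells than in mESCs. Of 7 further binders of AU-rich elements, all of them tested, Tia1 was called higher and Zfp36l1 lower in N2a cells than in each other line, and Zfp36l2 higher than in mESCs. These 3 are named after their values were seen. With 7 genes, counts of 1 or 2 were near the shares over all genes tested. Zfp36l1, which destabilizes transcripts, was at 3.34 CPM in N2a cells, 211 CPM in NIH/3T3 cells, and 60.7 CPM in mESCs. Tia1 was at 134, 50.9, and 58.8 CPM, and Zfp36l2 at 60.9, 62.1, and 15.3 CPM. The 3 with the highest mean level over the lines were Hnrnpd at 208, 169, and 375 CPM, Tial1 at 180, 130.4, and 107 CPM, and Khsrp at 103, 83.4, and 114 CPM. The median log2 ratio of the 7 genes was 0.30 for N2a cells over NIH/3T3 cells and 0.51 over mESCs.

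Rest, the repressor of neuronal genes in non-neuronal cells, was at 51.5 CPM in N2a cells, 119 CPM in NIH/3T3 cells, and 510.1 CPM in mESCs. It was thus 2.30-fold (2.12 to 2.51) higher in NIH/3T3 cells and 9.90-fold (9.24 to 10.6) higher in mESCs than in N2a cells. Any part of Rest in the levels of the members was not tested. Among its partners, Hdac1 was at 148, 178, and 241.5 CPM and Kdm1a at 162, 62.5, and 257 CPM. Of 8 genes whose transcripts are textbook targets of Nova, Ptbp, Rbfox, or Elavl proteins, 6 passed the filter on low levels. Between N2a and NIH/3T3 cells, 1 was called higher in N2a cells (Gap43) and 1 lower (Fn1), and between N2a cells and mESCs 2 were called higher (Gap43 and Dlg4) and 3 lower (Fn1, Gabbr1, and Dab1, the last 2 named after their values were seen). Of all genes tested, 19.9% were higher and 17.0% lower against NIH/3T3 cells, so 1 of 6 in each direction was near these shares. Against mESCs the shares were 21.0% and 20.7%. The median log2 ratio of the 6 genes was -0.10 over NIH/3T3 cells and -1.32 over mESCs, so Gap43 and Dlg4 were not typical of the list. UMIs were counted per gene, so splicing of these targets was not measured. Gabbr1, a receptor gene with exons regulated by Nova, was at 17.4, 24.4, and 77.4 CPM, and Dab1, another Nova target, at 1.11, 1.71, and 24.7 CPM. Fn1, with exons regulated by Rbfox2, was at 113, 411, and 642 CPM. Dlg4, whose transcript is repressed by Ptbp1 and Ptbp2, was at 75.6, 38.4, and 10.3 CPM.

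For each member with at least 10 CPM in a line, the gene with the closest levels across the 3 lines was found by the smallest value of the largest difference in log2(CPM + 1). Elavl4 was closest to Setbp1, which had 278 CPM in N2a cells, 0.342 CPM in NIH/3T3 cells, and 5.60 CPM in mESCs, a largest difference of 0.23, and Elavl3 was closest to Lin28b, at 295, 2.56, and 24.6 CPM, a largest difference of 0.40. Both had only 2 genes within a difference of 0.5 in every line. Nova2 was closest to Ttyh3 (0.16) and had 7 such genes, and Ptbp2 to Sik3 (0.29) with 12. The other members had more neighbors: 213 for Ptbp1, nearest Zfp706, 175 for Elavl1, nearest Slbp, 157 for Elavl2, nearest Fam136a, 70 for Rbfox2, nearest Nfib, and 41 for Nova1, nearest Anapc16. With 3 lines, such likeness describes these samples only.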

How the data were processed

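RNA of N2a cells, NIH/3T3 cells, and mESCs was measured by CapSeq, all lines being barcoded in 1 experiment. The authors split reads by BC1 with CapMux, trimmed them with Cutadapt, and used STARsolo to map and count them, against GRCm39 and the GENCODE M30 annotation. The deposited matrices hold raw UMI counts for each gene in each barcode, unfiltered and not normalized. The STARsolo feature mode (exons alone or with introns) and strand setting are not given in the sources used here. The pooled matrix of the same reads served only as an alternative.

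Counts were summed over filtered cells per line and scaled to CPM. With 1 library per line, genes were called by a fold of 2 on CPM + 1 among genes with a mean of at least 1 CPM, without a test. Thinning drew 1000 UMIs per cell without replacement. Doublets were not called, and an alternative omitted the deepest 5% of cells. Gene positions came from GENCODE M39. The level of 1 gene of the N2a marker list is left out. Named genes were the members, Ptbp3, Rbfox3, the 11 neuronal RNA-binding proteins, the 3 genes with the highest mean CPM of each other list, and the closest gene per member. The members and lists were chosen with earlier results of these data known, and the promoter motifs after the sequences were read. On simulated data for N2a against NIH/3T3 with 14294 genes, 94.0% of 200 changed genes and 0.0071% of unchanged genes were called, and 95.5% of ratio intervals held the true fold. All changed genes had true folds well beyond the cut-off of 2, and counts were drawn with counting error only. The simulation therefore checks the calculation and does not show how often calls or intervals are right in the real data. Scripts ran in Python 3.11.15 with matplotlib 3.10.9, numpy 2.4.6, pandas 2.3.3, and scipy 1.17.1.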

Additional observations from a re-analysis of the deposited data

How the results depend on the processing

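The 6 counts of members past the fold were recomputed in 84 alternatives, and 9 gave another number. Of these, 2 differed by over 1.5 times, both with a fold of 4, which left 0 members higher and 3 lower in NIH/3T3 cells than in mESCs. The other 7 differed by 1 member: 5 instead of 4 were higher in N2a than in NIH/3T3 cells with all barcodes, without the deepest 5% of cells, or with a pseudocount of 0.1, and 3 with a fold of 4, which also gave 4 instead of 5 higher in N2a cells than in mESCs, and 4 instead of 5 were lower in NIH/3T3 cells than in mESCs with a pseudocount of 5 or a mean of at least 10 CPM. Neuronal paralog shares moved beyond their counting interval in 6 of 63 alternatives, all after thinning to 1000 UMIs: the Elavl share was then 73.7% in N2a and 30.7% in NIH/3T3 cells, the Ptbp2 share 69.8% and 43.8%, and the Rbfox1 share 0.0% in NIH/3T3 cells and 0.324% in mESCs. These intervals were those of all UMIs, whereas thinned shares rest on fewer UMIs and carry a wider counting error, which was not computed. A move beyond them is therefore not a move beyond the error of the thinned share. The cause was not tested, and the order of lines was kept for Elavl and Ptbp. Of 270 levels under alternatives, 26 moved beyond their interval, 20 of them when mitochondrial and ribosomal genes were left out of the total. Only 3 moved by over 1.5 times, all in NIH/3T3 cells: Elavl4 and Nova2 over all barcodes were at 0.666 and 0.518 CPM, and Nova2 as a mean of per-cell CPM at 0.282. Depth limits Rbfox1 everywhere and Elavl4 and Nova2 in NIH/3T3 cells. No paired analysis was possible because each line had 1 library.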
